A study of Mus musculus with 6 samples.

Results

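The genes described here are 42 genes of DNA damage signalling and repair, sorted by route into damage sensing and checkpoint kinases (8 genes), homologous recombination (12), the Fanconi anaemia route (11), mismatch repair (2), base excision and single-strand break repair (4) and end joining (5). They were grouped by what their products do, and they are 42 of the 49315 gene identifiers in the count table. All 42 passed the filter on low counts and belong to the 12274 genes tested. RNA was sequenced from RAW264.7 cells, a wild-type mouse macrophage-like line, that had been given either SKI-II, an inhibitor of sphingosine kinases, at 4 μg/mL or its vehicle DMSO for 24 h. Each condition had 3 libraries of poly(A)-selected RNA. The labels do not say whether the 3 libraries of a condition came from separate cultures, so p-values measure the spread between these libraries, which may be technical.

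A cell reads DNA damage through kinases. ATM is recruited to broken ends by the MRE11-RAD50-NBS1 complex, whereas ATR with TOPBP1 answers to stretches of single-stranded DNA at stalled forks, and they pass the signal on to CHK2 and CHK1. Breaks are then mended either by copying the sister chromatid, which needs BRCA1 and BRCA2 and works in S and G2 phases, or by joining the ends through the Ku heterodimer and DNA-PKcs at any phase. The Fanconi anaemia proteins unhook crosslinks between strands, mismatch repair corrects copying errors, and base excision removes single damaged bases. Many genes of the replication-coupled routes are transcribed mainly in cycling cells, through promoters bound by E2F factors.

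The libraries held 12495957 to 20050677 counts on genes. The members had between 374 and 33369 counts each over the 6 libraries, and no member had fewer than 22 counts in any library, which is the depth behind the values given here. Values are given as normalized counts (counts scaled to a common library size), and levels are compared between genes as RPKM (counts scaled for both exon length and library size). All 10 macrophage marker genes were tested, with 3 lower and 2 higher with SKI-II, and their summed level was 5689 to 8703 RPKM with DMSO and 3150 to 4770 RPKM with SKI-II. Marker lists of fibroblasts, T cells, B cells and epithelial cells summed to at most 0.2041 RPKM in any library, and the epithelial markers were at 0 throughout.

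With SKI-II, 31 of the 42 genes (73.8%) were lower and 1 was higher at an adjusted p below 0.05 in the quasi-likelihood test of edgeR, and 10 were not called. Among all tested genes 19.7% were lower and 18.4% higher by the same rule. The median log2 fold change of the 42 genes was -1.06, beside 0.0038 over all tested genes, and the values ran from -2.86 for Fancd2 to 0.72 for Xrcc5. A decrease of more than 1 on the log2 scale was called for 22 members (52.4%) against a background of 7.44%. In 34 members (81%) every SKI-II library lay below every DMSO library, beside 25.5% of all tested genes, and in 1 member, Xrcc5, every SKI-II library lay above, beside 24.8% of all tested genes. The levels of the 42 genes added up to 398, 374.6 and 345.6 RPKM with DMSO and to 168, 186.5 and 195.1 RPKM with SKI-II, a mean of 49.2% of the DMSO level. In bulk RNA, a smaller share of cells in the phases that express a gene and less of its RNA per cell cannot be told apart.

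**Figure D1:**
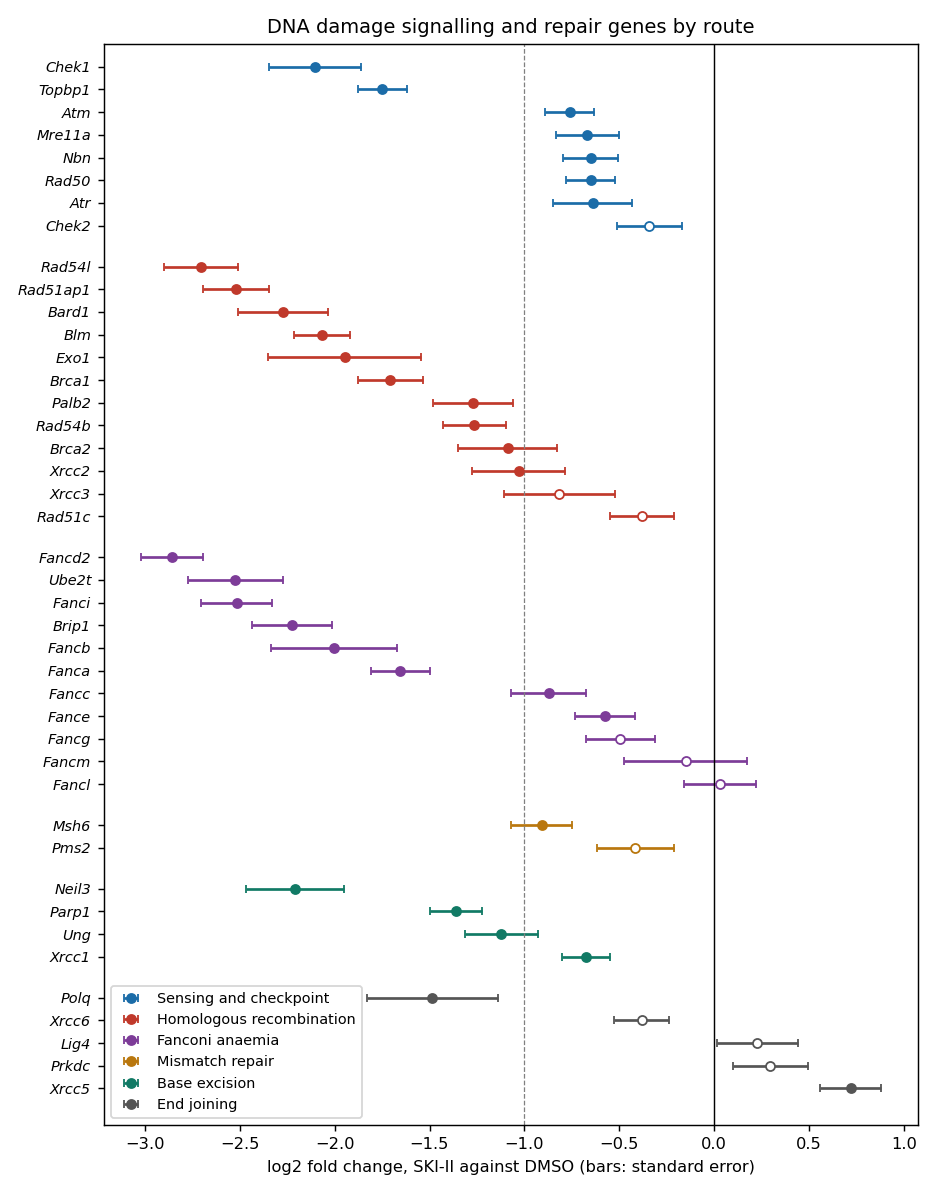
Log2 fold change of each of the 42 genes, SKI-II against DMSO, grouped by route, with bars of 1 standard error from the edgeR fit on 3 libraries per condition and filled points for genes called at an adjusted p below 0.05. Fancd2 lies farthest to the left at -2.86, and Xrcc5 at 0.72 is the called gene to the right of 0.

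The routes did not move by the same amount. Homologous recombination had the lowest summed level, at 32.7% of DMSO, with 10 of 12 genes lower, all 10 of them by more than 1 on the log2 scale. The Fanconi route stood at 41.5% with 8 of 11 lower, and base excision at 41.1% with 4 of 4 lower. Mismatch repair stood at 54.7% with 1 of 2 genes lower, and sensing and checkpoint at 56.7% with 7 of 8 lower but only 2 by more than 1. End joining was the exception, at 93.7% of DMSO, with 1 gene lower, 1 higher and 3 not called. With DMSO the recombination genes summed to 1.85, 1.82 and 1.57 times the end joining genes, and with SKI-II to 0.698, 0.599 and 0.553 times. These sums are weighted towards the more abundant genes, and Parp1 alone had 96.3 of the 115.6 RPKM of the base excision genes with DMSO. The differences between routes are descriptions of the gene lists and were not tested. Genes of the same routes that are not members stood at 53.4% of DMSO for sensing and checkpoint and 78.4% for recombination. The other Fanconi genes stood at 90.2%, mismatch repair at 83.1%, base excision at 103.7% and end joining at 114.6%.

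**Figure D2:**
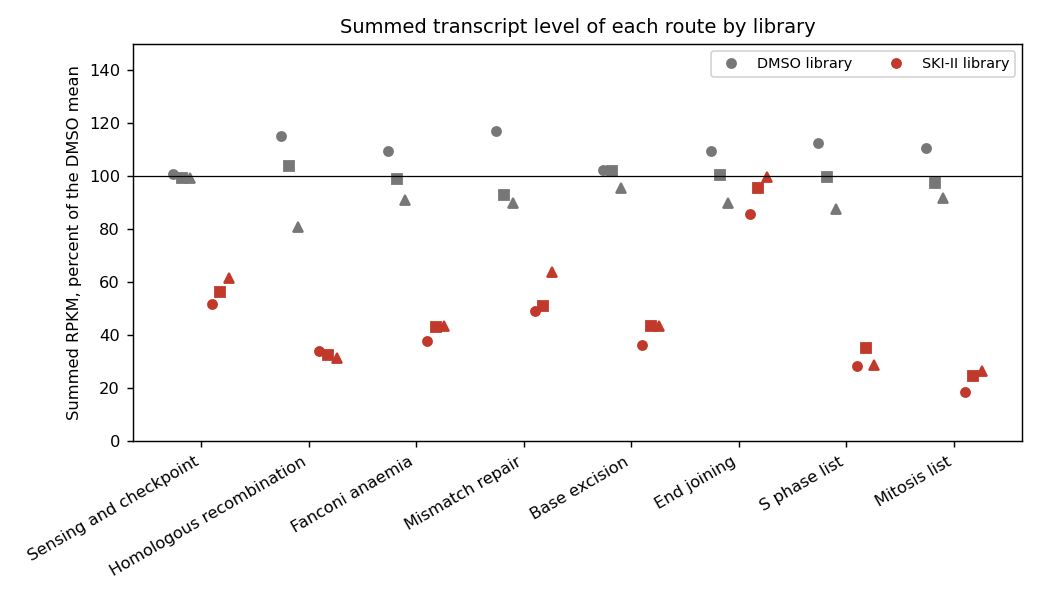
Summed RPKM of each route in each library, as a percentage of the mean of the 3 DMSO libraries (grey, DMSO; red, SKI-II; circle, square and triangle, replicates 1, 2 and 3), with the S phase and mitosis gene lists on the right. The SKI-II and DMSO points are apart in every column but end joining, where the SKI-II mean is 93.7% of DMSO.

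Because several of these genes are known as targets of E2F factors, their promoters were searched in the RefSeq table (build GRCm38.p6, 250 bases before to 50 after the start), which matched 35 of the 42 members by symbol and not Rad50, Nbn, Rad54b, Xrcc2, Exo1, Fancd2 or Prkdc. The E2F letters TTTCCCGC, TTTGGCGC, TTTCGCGC or TTTGCCGC, on either strand, were present in 8 of the 35 (22.9%), namely Chek2, Topbp1, Brca2, Bard1, Rad51c, Fancg, Msh6 and Xrcc6. They were present in 4.87% of the 9195 tested genes with a promoter and in 2.6% of all 27025 genes of the table. Among the members they were found in 3 of the 18 that fell by more than 1 (16.7%) and in 5 of the other 17 (29.4%), whereas over all tested genes they were found in 9.33% of the 686 that were lower by more than 1 and in 1.53% of the 719 that were higher by more than 1. The cell cycle homology letters TTTGAA or TTCGAA were in 4 of the 35 (11.4%), beside 16.7% of tested genes, and CCAAT was in 21 (60%), beside 43.2%. Below are windows of 60 bases, all before the RefSeq start, from 3 genes that fell by more than 1 and from Chek2, which was not called. They are shown to let the same letters be read in a gene that fell and in one that was not called, 5′ to 3′ on the strand of the gene, with the E2F letters or their reverse complement in capitals. They lie at chr9:103305172-103305231 (plus strand) for Topbp1, chr5:150522427-150522486 (plus) for Brca2, chr1:71103148-71103207 (minus) for Bard1 and chr5:110839805-110839864 (plus) for Chek2, and the letters start 129, 168, 209 and 152 bases before the start.
Topbp1: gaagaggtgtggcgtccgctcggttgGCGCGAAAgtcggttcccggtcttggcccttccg
Brca2: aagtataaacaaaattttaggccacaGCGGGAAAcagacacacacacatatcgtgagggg
Bard1: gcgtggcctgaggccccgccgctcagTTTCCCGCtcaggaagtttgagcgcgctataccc
Chek2: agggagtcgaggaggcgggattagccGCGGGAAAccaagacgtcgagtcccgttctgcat
A match is a run of letters and not a shown binding site.

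Of the sensing and checkpoint genes, Chek1 and Topbp1, which act at stalled forks, had the lowest fold changes, and the other called genes lay between -0.76 and -0.64. Chek1 encodes CHK1, the kinase that halts the cycle when forks stall, and lies on chromosome 9 at 36708482 to 36727065 of GRCm38. Its normalized counts were 282.6, 261.5 and 236.7 with DMSO and 47.0, 82.1 and 52.1 with SKI-II. The groups lay far apart, with a log2 fold change of -2.10 (SE 0.24, adjusted p = 0.000165 by edgeR). Topbp1, the activator of ATR, had 3091, 2647 and 2794 normalized counts with DMSO and 788.8, 959.9 and 791.1 with SKI-II, and fell by 1.75 on the log2 scale (SE 0.13, adjusted p = 1.56e-05 by edgeR).

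Atm, the apical kinase for double-strand breaks, had 1450, 1495 and 1174 normalized counts with DMSO and 810.1, 790.1 and 827.8 with SKI-II. It fell by 0.76 on the log2 scale (SE 0.13, adjusted p = 0.00152 by edgeR), with no overlap between the groups. Atr, the kinase that answers to single-stranded DNA, had 961.6, 779.6 and 530.7 normalized counts with DMSO and 504.6, 529.6 and 423.7 with SKI-II. Its log2 fold change was -0.64 (SE 0.21, adjusted p = 0.0335 by edgeR), but DMSO replicate 3 almost reached SKI-II replicate 2, and the call was lost in 6 of 13 alternative analyses (other tools, scalings and filters, a replicate block, and each library left out), the highest adjusted p being 0.101 without DMSO replicate 1. Chek2, the kinase below ATM, was not called. Its normalized counts of 464.3, 384.1 and 316.9 with DMSO overlapped those of 283.1, 313.9 and 322.6 with SKI-II (log2 fold change -0.34, SE 0.17, adjusted p = 0.149 by edgeR). The ratio of Chek1 to Chek2, in RPKM, was 0.394, 0.441 and 0.484 with DMSO and 0.108, 0.169 and 0.105 with SKI-II.

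The 3 subunits of the complex that holds broken ends moved by nearly the same amount. Rad50, its coiled-coil tether, stood at 63.7% of the DMSO mean, Mre11a, its nuclease, at 62.9%, and Nbn, which binds ATM, at 63.6%, with log2 fold changes of -0.65, -0.67 and -0.65 and adjusted p-values by edgeR of 0.00314, 0.011 and 0.00571. The call on Mre11a was lost without SKI-II replicate 2 (adjusted p = 0.0519). These 3 genes had their highest DMSO value in replicate 3, unlike most members: over the 42 genes, DMSO replicate 3 was the lowest DMSO library in 33 and replicate 1 the highest in 29.

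In homologous recombination Rad54l, Rad51ap1 and Bard1 had the lowest values. Rad54l, at 116094264 to 116123690 on chromosome 4, encodes the motor protein RAD54 that acts as the broken strand invades its template. It had 1826, 1519 and 1137 normalized counts with DMSO and 237.2, 254.8 and 196.3 with SKI-II, a log2 fold change of -2.70 (SE 0.20, adjusted p = 1.49e-05 by edgeR). Of its exon bases, 15.4% are shared with Lrrc41 on the opposite strand, which was higher by 0.47 (adjusted p = 0.0198 by edgeR), and reads of the pair cannot be told apart there if strand was not used in counting. Rad51ap1, an accessory factor of recombination, had 387.5, 398.0 and 358.5 normalized counts with DMSO and 61.5, 64.9 and 72.5 with SKI-II. The replicates were close in both groups, and the fall was 2.52 on the log2 scale (SE 0.17, adjusted p = 1.22e-05 by edgeR).

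Bard1 encodes the partner with which BRCA1 forms a ubiquitin ligase. It had 417.7, 304.5 and 265.4 normalized counts with DMSO and 83.9, 60.1 and 61.1 with SKI-II, and fell by 2.27 (SE 0.24, adjusted p = 9.18e-05 by edgeR). Brca1 itself fell by 1.71 on the log2 scale to 30.7% of the DMSO mean, and the ratio of Bard1 to Brca1 in RPKM was 0.425, 0.341 and 0.387 with DMSO and 0.279, 0.232 and 0.271 with SKI-II. The nucleases, helicases and mediators of the route fell as well. Blm, the helicase that dissolves crossed strands, fell by 2.07, Exo1, which resects ends, by 1.95, Palb2, which links BRCA1 to BRCA2, by 1.27, Rad54b, a relative of RAD54, by 1.26, Brca2, a mediator of recombination, by 1.09, and Xrcc2, a further recombination factor, by 1.03, all called. The adjusted p-values of these 6 lay between 1.28e-05 for Blm and 0.00916 for Brca2. Rad54b shares 35.8% of its exon bases with Fsbp on the same strand, to which 45 counts were assigned over the 6 libraries.

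Rad51c and Xrcc3, which act together in a complex of the route, were the members of the route that were not called. Rad51c had 294.3, 351.3 and 288.1 normalized counts with DMSO and 224.9, 216.6 and 273.7 with SKI-II. These groups did not overlap, but the log2 fold change of -0.38 (SE 0.17) had an adjusted p of 0.104 by edgeR. Xrcc3 had 275.8, 290.6 and 140.6 normalized counts with DMSO and 161.1, 139.3 and 101.8 with SKI-II, with DMSO replicate 3 inside the SKI-II range. Its log2 fold change was -0.82 (SE 0.29, adjusted p = 0.0504 by edgeR), and it was called in 4 of 13 alternatives, among them DESeq2 (adjusted p = 0.0228), edgeR without the filter (adjusted p = 0.00253) and edgeR without DMSO replicate 3 (-1.09, adjusted p = 0.00458).

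**Figure D3:**
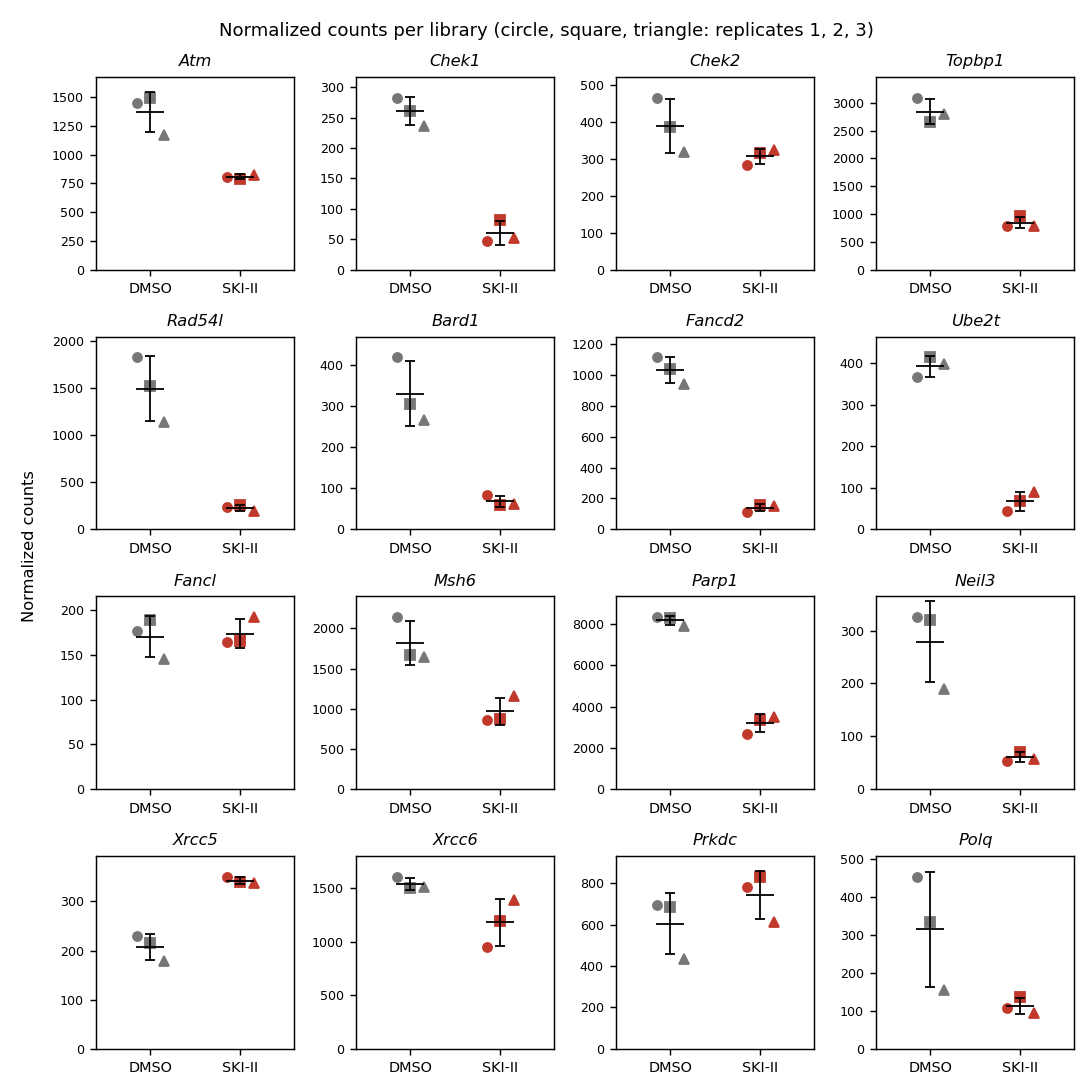
Normalized counts of 16 of the members in each library, DMSO in grey and SKI-II in red, with circle, square and triangle for replicates 1, 2 and 3, a horizontal line for the mean and bars of 1 SD (n = 3). The groups are wide apart for Chek1, Rad54l, Fancd2 and Ube2t, overlap for Chek2, Fancl and Prkdc, and are the other way round for Xrcc5.

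The Fanconi route held both the gene with the largest decrease of the 42 and genes that hardly differed. Fancd2, at 113531682 to 113597017 on chromosome 6, encodes a subunit of the clamp that is ubiquitinated at crosslinks, and had 1111, 1036 and 940.7 normalized counts with DMSO and 115.3, 158.4 and 150.7 with SKI-II. It fell by 2.86 on the log2 scale (SE 0.16, adjusted p = 6.9e-06 by edgeR). Fanci, the other subunit of the clamp, had 559.5, 528.1 and 432.7 normalized counts with DMSO and 77.2, 103.1 and 84.7 with SKI-II (log2 fold change -2.52, SE 0.19, adjusted p = 1.5e-05 by edgeR). Fanci shares 16% of its exon bases with Polg on the opposite strand, whose log2 fold change was -0.04. Ube2t, the conjugating enzyme that ubiquitinates the clamp, had 366.2, 414.4 and 398.1 normalized counts with DMSO and 43.6, 67.8 and 91.3 with SKI-II (log2 fold change -2.52, SE 0.25, adjusted p = 6.56e-05 by edgeR). The clamp and the enzyme that modifies it stood at 13.7% (Fancd2), 17.4% (Fanci) and 17.2% (Ube2t) of their DMSO means, with every SKI-II library below every DMSO library.

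The ligase side of the route was uneven. Fancl encodes the ubiquitin ligase subunit that works with UBE2T, and its normalized counts of 176.8, 189.5 and 145.6 with DMSO overlapped those of 164.5, 165.1 and 192.3 with SKI-II. Its log2 fold change was 0.03 (SE 0.19, adjusted p = 0.915 by edgeR), with a sign that turned in 2 of 13 alternatives. Fancl shares 13.7% of its exon bases with Vrk2 on the opposite strand, which had a log2 fold change of -0.38 (adjusted p = 0.0593 by edgeR), so its counts are uncertain in the same way. Fancm, the translocase that anchors the core complex, had 258.4, 188.3 and 106.9 normalized counts with DMSO and 193.6, 192.7 and 114.1 with SKI-II (log2 fold change -0.15, SE 0.32, adjusted p = 0.749 by edgeR), also with overlap and with a sign that turned in 2 alternatives. It had the lowest level of the 42 genes with DMSO, 1.102 RPKM.

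Of the remaining core complex genes, Fancb fell by 2.00, Fanca by 1.65, Fancc by 0.87 and Fance by 0.58 on the log2 scale, with adjusted p-values by edgeR of 0.00129, 5.1e-05, 0.00683 and 0.0172. The call on Fance was lost in 3 of 13 alternatives, each time 1 library (SKI-II replicate 1 or 2, or DMSO replicate 2) was left out (adjusted p of up to 0.0701). Fancg, at -0.49, was not called (adjusted p = 0.0555), although its groups did not overlap, and it was called without DMSO replicate 2 (adjusted p = 0.0449). Brip1, the helicase FANCJ that binds BRCA1, fell by 2.23 (adjusted p = 5.21e-05). In Fanca, 10.5% of the exon bases are shared with Zfp276 on the opposite strand, which was at 0.68 (adjusted p = 0.0877). Fancc, with 731 counts over the 6 libraries, shares 16.4% of its exon bases with Gm16133 (1 count) and 2.21% with 2010111I01Rik (4158 counts), both on the opposite strand, and the latter was higher by 2.08 (adjusted p = 0.000986 by edgeR).

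Mismatch repair was represented by a recognition subunit and an endonuclease subunit. Msh6, which recognises mispaired bases, had 2139, 1674 and 1647 normalized counts with DMSO and 862.7, 877.9 and 1164 with SKI-II, without overlap (log2 fold change -0.91, SE 0.16, adjusted p = 0.00186 by edgeR). Pms2, which nicks the strand to be replaced, had 287.5, 274.2 and 212.9 normalized counts with DMSO and 183.5, 235.7 and 161.3 with SKI-II. SKI-II replicate 2 lay above DMSO replicate 3, and the log2 fold change of -0.42 (SE 0.20) was not called (adjusted p = 0.135 by edgeR).

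All 4 genes of base excision and single-strand break repair fell. Parp1, at 180568924 to 180601254 on chromosome 1, encodes the polymerase that marks breaks with ADP-ribose chains, and it was the most abundant of the 42 genes, with 96.3 RPKM in DMSO and 37.5 RPKM in SKI-II. Its normalized counts were 8339, 8281 and 7923 with DMSO and 2690, 3360 and 3507 with SKI-II, a log2 fold change of -1.36 (SE 0.14, adjusted p = 7.3e-05 by edgeR). Neil3, a glycosylase of oxidised bases, had 325.4, 320.9 and 190.1 normalized counts with DMSO and 52.6, 70.6 and 57.0 with SKI-II and fell by 2.21 (SE 0.26, adjusted p = 0.000177 by edgeR). Ung, which removes uracil from DNA, had 415.7, 425.8 and 327.8 normalized counts with DMSO and 162.2, 219.5 and 155.6 with SKI-II (log2 fold change -1.12, SE 0.19, adjusted p = 0.00157 by edgeR). Xrcc1 encodes the scaffold on which single-strand breaks are sealed. Its normalized counts were 1095, 1104 and 1074 with DMSO and 734.0, 716.6 and 600.5 with SKI-II, the smallest of the 4 decreases at -0.68 (SE 0.13, adjusted p = 0.00241 by edgeR).

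The end joining genes had no common direction, and Xrcc6 alone had 21.4 of their 33.03 RPKM with DMSO. Xrcc5 encodes KU80, a subunit of the ring that slides onto broken ends, and lies at 72307421 to 72394952 on chromosome 1. It had 230.2, 214.8 and 178.2 normalized counts with DMSO and 350.2, 338.7 and 338.1 with SKI-II. It was the called increase among the 42 genes, by 0.72 on the log2 scale (SE 0.16, adjusted p = 0.00628 by edgeR), and was called in each of the 13 alternatives. Xrcc6, the KU70 subunit of the same ring, had 1603, 1497 and 1511 normalized counts with DMSO and 952.2, 1194 and 1388 with SKI-II, with all SKI-II libraries below DMSO. Its log2 fold change of -0.38 (SE 0.15) was not called (adjusted p = 0.0654 by edgeR), and it was called in 2 of 13 alternatives, among them edgeR without SKI-II replicate 3 (-0.52, adjusted p = 0.0218). Xrcc6 shares 7.69% of its exon bases with Desi1 on the opposite strand, whose log2 fold change was -0.0081. The ratio of Xrcc5 to Xrcc6, in RPKM, was 0.252, 0.251 and 0.207 with DMSO and 0.644, 0.497 and 0.427 with SKI-II.

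Prkdc, which encodes the catalytic subunit DNA-PKcs, had 692.5, 687.4 and 433.7 normalized counts with DMSO and 783.3, 831.1 and 611.9 with SKI-II. The groups overlapped, since SKI-II replicate 3 lay below DMSO replicates 1 and 2, and the log2 fold change of 0.30 (SE 0.20) was not called (adjusted p = 0.271 by edgeR). Lig4, the ligase that seals the joined ends, had 169.0, 141.5 and 110.9 normalized counts with DMSO and 181.3, 153.6 and 158.9 with SKI-II (log2 fold change 0.23, SE 0.21, adjusted p = 0.435 by edgeR), also with overlap. Polq encodes the polymerase of the alternative route that joins ends by short homologies. Its normalized counts were 452.6, 334.8 and 154.5 with DMSO and 106.3, 135.5 and 94.5 with SKI-II, and it fell by 1.49 (SE 0.35, adjusted p = 0.00771 by edgeR), without overlap but with the widest ratio of DMSO replicate 1 to replicate 3 of the 42 genes (1.55 on the log2 scale).

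The transcript ratios (RPKM) of both conditions did not overlap for any of the 4 gene pairs examined: Chek1 to Chek2, Bard1 to Brca1, Xrcc5 to Xrcc6, and Fanci to Fancd2. Protein was not measured. The last ratio was 0.692, 0.701 and 0.632 with DMSO and 0.921, 0.894 and 0.773 with SKI-II. For each of the 4 the exact two-sided permutation test gave p = 0.1, also after adjustment over the 4, which is the smallest value that 3 libraries against 3 allow. Groups without overlap always give this value, so the test adds nothing to the ratios. The ratios use the same counts as the fold changes above.

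The members were longer at the median than all tested genes, and their values differed between the DMSO libraries. The members had a median exon length of 5716.5 bases, beside 4228 for all tested genes, and with all tested genes ranked by length into 4 equal classes, the 17 members in the longest class had a median log2 fold change of -1.49, beside -1.12 for the 17 in the next class. Over all tested genes the median of each length class lay between 0.0014 and 0.0049. DMSO replicate 1 stood above replicate 3 by a median of 0.36 on the log2 scale over the 42 genes. Leaving out each library in turn gave 28 to 32 members called lower, and 20 to 23 lower by more than 1. The part of length and of this library difference in the member values was not tested further. The level with DMSO was hardly related to the change among members (Spearman correlation of -0.079 across 42 genes, which are not independent replicates).

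Of the repair genes that are not members, a smaller share was called lower. Of 124 other repair genes in the table, 122 were tested, of which 38 (31.1%) were lower, 13 (10.7%) higher and 71 not called, with a median log2 fold change of -0.14 and a summed level of 85.0% of DMSO. Without SKI-II replicate 1 the number higher was 8. Over all tested genes the shares were 19.7% lower and 18.4% higher. Other genes of sensing and checkpoint were lower in 10 of 21 and higher in 0, and other recombination genes were lower in 13 of 29 and higher in 2. Other Fanconi genes were lower in 3 and higher in 2 of 10, and other mismatch repair genes lower in 3 and higher in 1 of 5. Base excision had 4 lower and 3 higher of 17 and end joining 0 lower and 2 higher of 7. Nucleotide excision repair, which removes bulky lesions and has no member among the 42, had 3 lower and 3 higher of 21, and translesion synthesis 2 lower and 0 higher of 12. The shares lower in base excision (23.5%), nucleotide excision (14.3%) and translesion synthesis (16.7%) lay near that of all tested genes. So did the shares higher in base excision (17.6%) and nucleotide excision (14.3%), and these counts are no result about those routes.

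Among these other genes the lowest called included Mutyh, Rad51b and Clspn. Mutyh, a glycosylase of misincorporated adenine, went from 135.7 ± 32.7 to 29.6 ± 2.52 normalized counts (SD, n = 3) and fell by 2.19 on the log2 scale. Rad51b, a recombination factor, went from 124.5 ± 35.7 to 27.2 ± 12.5 normalized counts (SD, n = 3) and fell by 2.17. Clspn, the adaptor through which ATR reaches CHK1, fell by 1.98. The highest called included Dclre1b, a nuclease of telomeres and crosslinks, at 1.43, Ercc1, a subunit of the nuclease that cuts beside bulky lesions, at 1.07, and Mcm9, a helicase of recombination, at 0.94. The adjusted p-values by edgeR of these 6 genes lay between 0.000272 and 0.00146.

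Genes of DNA replication and cell division were also lower with SKI-II, with lower medians than the repair genes. Of 30 S phase genes, 27 were lower and none higher, with a median log2 fold change of -1.85. Their called values ran from -2.80 for Mcm5, a subunit of the replicative helicase, and -2.76 for Uhrf1, which maintains DNA methylation at forks, to -0.89 for Hells, a chromatin remodeller, and -0.65 for Slbp, the histone mRNA binding protein. Of 30 mitosis genes all were lower, with a median of -2.09, from -2.77 for Aurkb, a kinase of chromosome segregation, and -2.61 for Mki67, the proliferation marker, to -1.48 for Tpx2, a spindle assembly factor, and -1.35 for Cenpe, a kinetochore motor. The S phase genes summed to 30.9% and the mitosis genes to 23.3% of their DMSO levels, and 12 of the 42 repair genes had a log2 fold change below the S phase median. How far the share of cycling cells accounts for the members was not tested.

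Genes known as targets of p53, which is activated by ATM and CHK2 after damage, gave no common direction. Of 24 tested, 6 (25%) were higher and 3 (12.5%) lower, beside 18.4% and 19.7% of all tested genes, with a median of 0.10. Gadd45a, a stress-induced growth arrest gene, was higher by 2.74 and Plk3, a stress kinase, by 1.51, whereas Pmaip1, which encodes the death factor NOXA, was lower by 1.07 and Sesn1, a regulator of nutrient signalling, by 0.89 on the log2 scale. Cdkn1a, the cycle inhibitor p21 and the best known target, was singled out after its values were seen and stood at 6502 ± 1561 normalized counts with DMSO and 6699 ± 1455 with SKI-II (SD, n = 3), with a log2 fold change of 0.04 (adjusted p = 0.889 by edgeR).

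**Figure D4:**
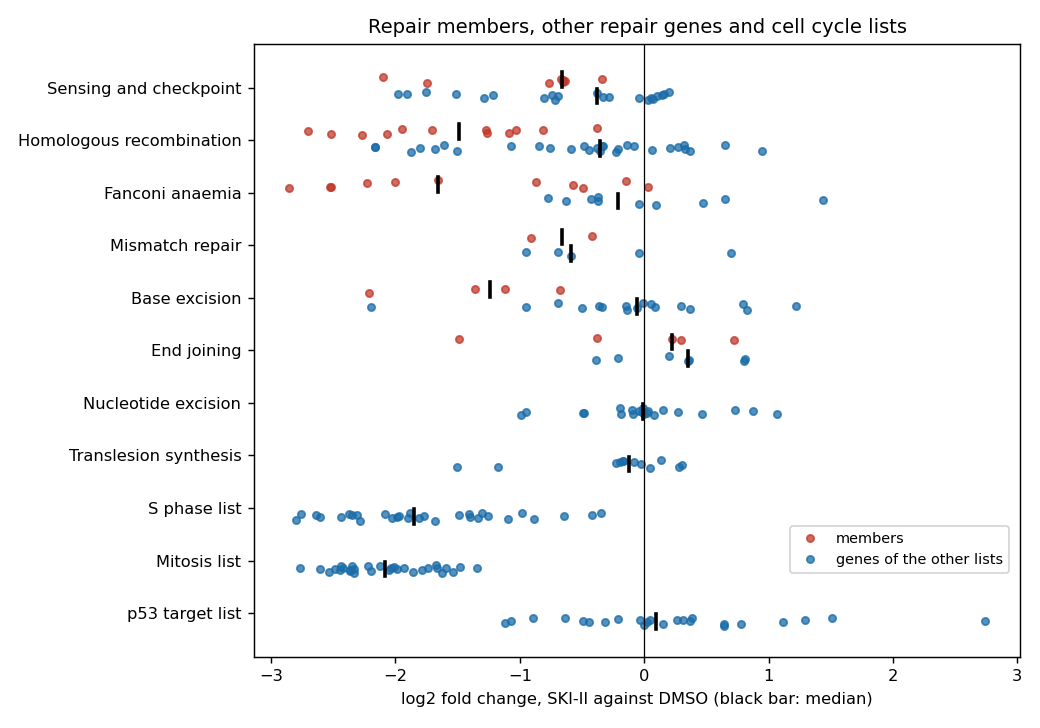
Log2 fold change of each tested gene, SKI-II against DMSO, for the members (red) and the genes of the other lists (blue), with a black bar at the median of each list. The members of recombination and the Fanconi route lie to the left of the other genes of the same route, the mitosis genes are all below 0 with a median of -2.09, and the p53 targets scatter around 0.10.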

How the data were processed

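Per the labels, poly(A) RNA was made into libraries with a NEBNext Ultra II kit. Per the submitters' processing notes, the authors used Trimmomatic 0.36, STAR 2.5.2b and featureCounts of Subread 1.5.2, and the deposited table used here holds raw counts of reads per Ensembl gene, as the authors made it, not normalized. No source used here names the genome build, the annotation or whether counting used strand. GENCODE M21 (GRCm38) placed 49056 of 49315 identifiers. RPKM used the union of its exons, which understates genes with long retained introns.

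Groups were compared with edgeR 4.0.16 in R 4.3.3 (glmQLFTest), 3 SKI-II against 3 DMSO libraries, with TMM scaling, filterByExpr and Benjamini-Hochberg adjustment over 12274 genes. SE is the log2 fold change divided by the root of F. Normalized counts are scaled to 16042438 counts per library. Alternatives were DESeq2 1.42.0, voom of limma 3.58.1, other scalings and filters, glmTreat at a log2 threshold of 1, a replicate block, and each library left out.

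The members and the lists, written by hand, were chosen with earlier results of these data known. Given in full were the checkpoint kinases and, in each route, the 3 lowest and 2 highest log2 fold changes. Of the other repair genes the 4 lowest and 4 highest called were named, and of the p53, S phase and mitosis lists the 2 lowest and 2 highest called. Results of some genes that this rule selects are not reported here.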

Additional observations from a re-analysis of the deposited data

How the results depend on the processing

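The number of members called lower was 30 to 33 and the number lower by more than 1 was 22 under DESeq2, limma-voom, RLE scaling, library size alone, no filter, a filter of 10 counts in every library and the replicate block, and 15 members passed the glmTreat test of edgeR at a log2 threshold of 1. Of 546 member values under 13 alternatives, 525 kept direction and side of the threshold, 10 lost the call, 7 gained it and 4 changed sign. Over the fits that leave out 1 library, Fancm lay between -0.43 (DMSO replicate 3 left out) and 0.16 (DMSO replicate 1), with 0.065 when SKI-II replicate 3 was left out. Fancl lay between -0.074 (DMSO replicate 3) and 0.10 (DMSO replicate 2), with -0.05 when SKI-II replicate 3 was left out. Neither gene was called in any of the 13. Leaving out each library gave 28 to 32 members lower, 20 to 23 lower by more than 1, 27 to 37 other repair genes lower and 8 to 12 higher (8 without SKI-II replicate 1). Calls were lost for Atr, Fance and Mre11a and gained for Xrcc3, Fancg and Xrcc6. No member had under 22 counts in a library, and for the lowest of these, such as Fancb, counting error adds to the spread between libraries. Same-numbered libraries deviated together with correlations of 0.246, 0.00994 and 0.458, and DMSO replicate 1 correlated best with SKI-II replicate 2 (0.296), so the numbers were not taken as pairs. The replicate block gave 33 members lower, with Xrcc3 (adjusted p = 0.00855) and Xrcc6 (adjusted p = 0.0418) added, and 1 higher, and 43 other repair genes lower and 15 higher.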
